A study of Drosophila melanogaster with 4 samples.

Results

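The long noncoding RNA (lncRNA) genes detected in the adult female gut of Drosophila melanogaster were described here, with their levels and their difference between dwdr4 mutant and wild-type guts. Genes were selected when their FlyBase symbol began with the lncRNA prefix and when at least 2 of the 4 libraries held 100 or more raw counts. This selected 79 of 1911 lncRNA genes, in a table of 17807 genes. RNA was sequenced from 2 libraries of wh7 guts, which carry the wh7 mutant allele of dwdr4 (listed as wuho in the count table), and from 2 libraries of WT guts of the yw strain, the wild-type control. Every library was a pool of 20 to 30 guts dissected from females aged 7 days, prepared with a kit for messenger RNA, and wh7 is a single allele compared with a separate strain.

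An lncRNA is a transcript without a long open reading frame. Some act as RNA in the nucleus, some lie opposite a coding gene, and others are host transcripts from which a microRNA (miRNA) is cut or a small nucleolar RNA (snoRNA) is released from an intron. In flies the best known are the roX RNAs, which bring the male-specific lethal complex to the male X chromosome, Hsromega, which organises nuclear speckles that store RNA-binding proteins, and let7C, the host transcript of let-7.

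The 4 libraries held between 93603837 and 101610356 counts. The mutated gene wuho had 2 and 3 counts in the wh7 libraries and 1489 and 1256 counts in the WT libraries, so it matched the labels (lower in wh7, adjusted p = 0.0210, edgeR's quasi-likelihood test with Benjamini-Hochberg adjustment). Genes of the gut were present in every library, enterocyte markers summing to between 46683 and 58453 counts per 1000000 of the library (CPM), while the 5 testis and male markers summed to at most 0.0222 CPM. Some tissue markers differed with genotype. Of the 8 enterocyte markers, 4 were higher and 4 lower in wh7 by log2 fold change. None of the 8 was called by edgeR (3 at an unadjusted p under 0.05, 1 by DESeq2). Amy-p had 28857 and 24826 CPM in wh7 and 10512 and 17511 CPM in WT. Jon65Aiv was in the other direction, with 9324.5 and 10522 CPM in wh7 and 14945 and 19579 CPM in WT. The 7 enteroendocrine markers summed to 149 and 154 CPM in wh7 and 346 and 334 CPM in WT, with AstA and AstC called lower by edgeR. The 5 fat body markers summed to 4479 and 4757 CPM in wh7 and 7386 and 11845 CPM in WT. Most of that sum came from the yolk protein genes Yp1, Yp2 and Yp3. Lsp2 had 48.2 and 37.8 CPM in wh7 and 62.9 and 54.9 CPM in WT. None of the 5 was called by edgeR (3 at an unadjusted p under 0.05, 3 by DESeq2). Fbp1 was in the other direction, at 1.23 and 2.2 CPM in wh7 and 0.0409 and 0.488 CPM in WT. The 3 copper cell markers were each higher in wh7 without overlap and summed to 380 and 374 CPM in wh7 and 247 and 188 CPM in WT, with none called by edgeR or by DESeq2 and none at an unadjusted p under 0.05. Of 5 intestinal progenitor markers, esg, Dl and hdc were not found under those symbols, and Sox100B and klu overlapped between genotypes. Of the 3 neuron markers, 1 was higher and 2 lower in wh7, with none called by edgeR (1 at an unadjusted p under 0.05, 1 by DESeq2). Among them nSyb had 3.32 and 3.55 CPM in wh7 and 7.22 and 7.59 CPM in WT. In pooled guts, fewer cells of a type cannot be told apart from less RNA per cell. The part of these markers in any lncRNA difference below was not tested. WT replicate 1 stood apart in genes for snoRNA-binding proteins, where the 6 small nucleolar ribonucleoprotein core genes found summed to 182 and 240 CPM in wh7, against 564 CPM in WT replicate 1 and 164 CPM in WT replicate 2. It was also highest in the sum of the 4 Malpighian tubule markers. They summed to 91.2 and 88.9 CPM in wh7, 164 CPM in WT replicate 1 and 62.4 CPM in WT replicate 2. Uro had 108 CPM in WT replicate 1 and 17.6 CPM in WT replicate 2, while Irk3 went the other way, at 10.4 and 22.6 CPM.

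The selection removed most annotated lncRNA genes. Of the 1911, 1186 had no count in any library and 646 had counts but did not meet the rule. Of the 79 selected, 58 reached 100 counts in all 4 libraries, 9 in 3 libraries and 12 in 2 libraries. Most, 72, reached it in both genotypes, whereas marge, CR44618, CR45204 and CR31044 did so only in wh7 and CR45915, CR45392 and CR44057 only in WT. Those 7 were selected partly by the genotype in which they are high, so their difference is in part a product of the rule. Just inside the limit, CR45204 had 143 and 101 counts in wh7 and 82 and 96 in WT. Just outside it, noe had 66 and 83 counts in wh7 and 94 and 114 in WT, and CR34044 had 52 and 15 in wh7 and 97 and 120 in WT.

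Together the selected genes were a small share of the libraries, and CR42862 made up most of it. They took 0.270% and 0.236% of all counts in wh7 (95% Wilson intervals of 0.269 to 0.271% and 0.235 to 0.237%) and 0.209% and 0.273% in WT (0.209 to 0.210% and 0.272 to 0.274%), so the genotypes overlapped. These intervals cover counting error only. CR42862 alone accounted for 71.7% and 65.3% of the counts of selected genes in wh7 and for 70.3% and 78.6% in WT. The 79 genes nonetheless held between 96.7% and 98.0% of all counts on lncRNA genes.

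The level of a typical selected lncRNA gene was low. The median of the mean level over 4 libraries was 3.02 CPM, against 23.8 CPM for the 8681 protein-coding genes that met the same count rule, and 64 of 79 (81.0%) stayed under 10 CPM, compared with 30.9% of those coding genes. Per kilobase (kb) of annotated exon the gap was narrower, with medians of 2.48 CPM per kb for the selected lncRNA genes and 10.5 CPM per kb for the coding genes. The range among the selected genes was wide, with 0.155 CPM per kb for CR43334 at the low end and 325 CPM per kb for CR42862 at the high end.

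CR42862, on chromosome arm 3L, was the most abundant by either measure and did not separate the genotypes. It had 1966 and 1519 CPM in wh7 and 1419 and 2227 CPM in WT, and the values of wh7 lay between those of WT. Its log2 fold change was -0.07 (SE 0.29, adjusted p = 0.947, edgeR). The gene has 5485 exon bases, of which 4.48% are shared with the coding gene CG33229 on the same strand.

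**Figure D1:**
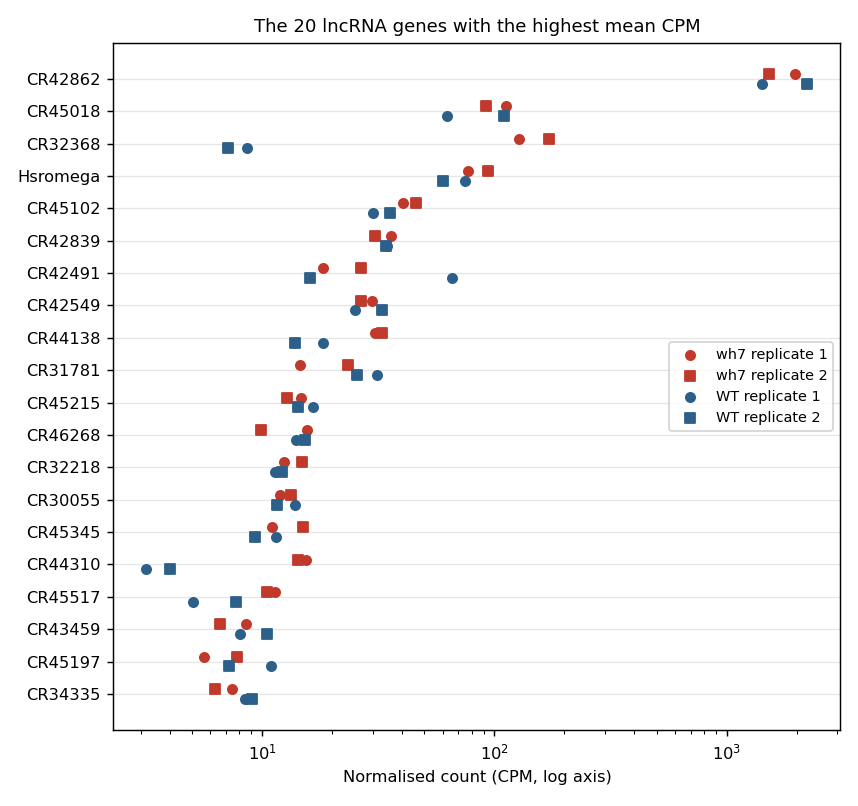
Normalised count (CPM, log axis) of the 20 selected lncRNA genes with the highest mean, with a point for each library, wh7 above WT in each row. CR32368 and CR44310 show the widest gaps between genotypes, while CR42491 is set apart by WT replicate 1 at 65.4 CPM.

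Below CR42862 came a group of moderate level in which genotypes overlapped or lay a small distance apart. CR45018, on the X, had 112 and 92.6 CPM in wh7 and 62.6 and 110 CPM in WT, with 35.8% of its exon shared with IP3K2. Hsromega had 77.2 and 94.4 CPM in wh7 and 75.0 and 60.1 CPM in WT, so that wh7 was higher in each library by a small margin (log2 fold change 0.34, SE 0.19, adjusted p = 0.519, edgeR). Its annotated transcripts merge into a single exon block of 21710 bases, and over that merged length its level was 3.53 CPM per kb. The counts do not separate transcripts of different length. CR45102, on the X and 185 bases from Mnt, had 40.3 and 46.0 CPM in wh7 and 30.1 and 35.7 CPM in WT, again without overlap (log2 fold change 0.39, SE 0.17, adjusted p = 0.402, edgeR). CR42839, beside the GATA factor gene srp, was even across libraries, at 35.8 and 30.7 CPM in wh7 and 34.4 and 34.3 CPM in WT. CR42549, which overlaps mura, varied more between libraries and overlapped, at 29.7 and 26.6 CPM in wh7 and 25.2 and 32.7 CPM in WT. CR31781 was lower in each wh7 library, at 14.6 and 23.5 CPM, than in WT, at 31.4 and 25.7 CPM (log2 fold change -0.58, SE 0.29, adjusted p = 0.458, edgeR).

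Across the whole selection, 1 gene was called higher in wh7 at an adjusted p under 0.05 and none lower by edgeR's quasi-likelihood test. Over all 10795 genes tested, 0.250% were called higher and 0.232% lower, 52 genes in all (0.482%). At an unadjusted p under 0.05, 12 selected genes were higher and 4 lower (20.3%), against 7.23% of all genes higher and 7.32% lower (14.5%). DESeq2 called 6 higher and 4 lower (12.7%), against 7.96% of all genes. These counts include genes selected partly by the genotype in which they are high. Among the 58 genes with 100 counts in every library, 9 were higher and 1 lower at an unadjusted p under 0.05 in edgeR, and DESeq2 called 3 higher and 1 lower (6.90%). The edgeR count was 0 without wh7 replicate 1 or without wh7 replicate 2, 4 without WT replicate 1 and 9 without WT replicate 2, and over all genes it was 0, 0, 401 and 921 in the same order. For a single gene, the smallest p that an exact permutation of 2 against 2 libraries allows is 0.333 (two-sided).

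Most of the selected genes lay within 1.5-fold of WT, though in a smaller share than over all genes. Of the 79, 53 (67.1%) did so, against 75.4% of all genes tested and 82.8% of coding genes under the same count rule. Among the 58 genes with 100 counts in every library, 45 (77.6%) did so. A fitted difference of 2-fold or more was found for 7 higher and 6 lower (16.5%), against 13.1% of all genes and 7.69% of coding genes under the same count rule. Among the 58 genes with 100 counts in every library it was found for 3 higher and 1 lower (6.90%). The wh7 and WT libraries did not overlap for 25 genes higher in wh7 and 11 lower in wh7, 36 in all (45.6%, against 46.7% of all genes). By direction that is 31.6% higher and 13.9% lower in wh7, against 23.8% and 22.9% of all genes. Among the 58, 18 were higher and 7 lower without overlap. The median log2 fold change was 0.13, against -0.02 for all genes, and it was 0.03 among the 58. In 23 of the selected genes the 4 libraries lay within 1.5-fold of each other.

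**Figure D2:**
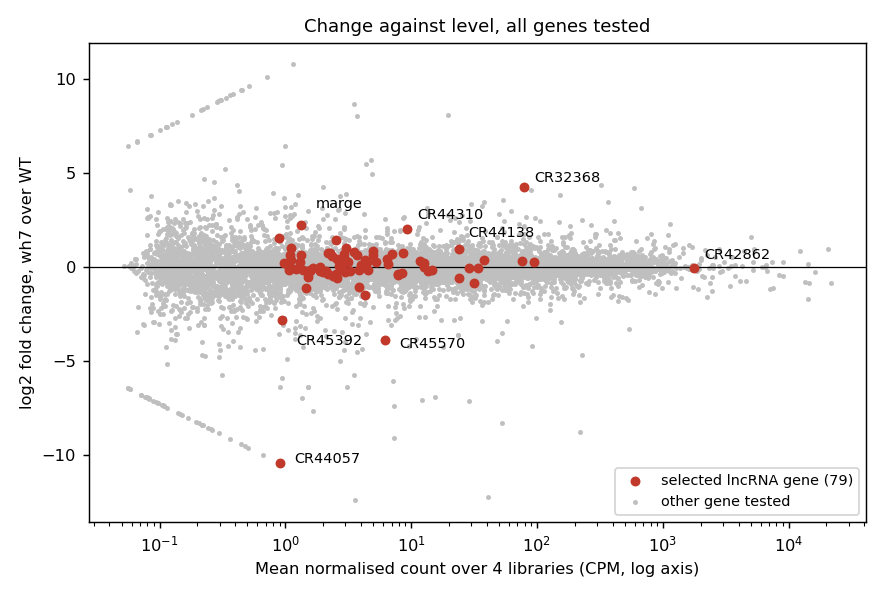
Fitted log2 fold change (wh7 over WT) against mean normalised count (CPM, log axis) for all 10795 genes tested, with the 79 selected lncRNA genes in red. Most red points lie near 0 between 1 and 100 CPM, and CR32368 stands at 4.25 near 79 CPM.

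CR32368 was the gene called, and since it was named with its result known its values are given as a description, without a p. The 2 wh7 libraries held 11875 and 17772 raw counts and the 2 WT libraries 842 and 641. This corresponds to 127 and 173 CPM in wh7 and 8.61 and 7.11 CPM in WT, a gap far wider than the spread within either genotype. On the mean CPM the fold was 19.1, and the fitted log2 fold change was 4.25 (SE 0.24), and it stayed between 4.02 and 4.45 in the 4 fits that each lacked a library. By log2 fold change it ranked 41st among all genes, and 3rd among the 6095 genes tested with a mean of 10 CPM or more. The gene is short, with 410 exon bases in a single block on arm 3L, so per length it reached 366 CPM per kb in wh7 and 19.2 CPM per kb in WT, next to 318 CPM per kb for CR42862 in wh7. The order of the pair by length differed between the wh7 libraries, CR32368 being above CR42862 in replicate 2 only. In wh7 it made up 4.65% and 7.42% of the counts of selected genes, against 0.427% and 0.251% in WT.

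Genes next to CR32368 did not share a difference of that size. CR32368 lies between coding genes with no annotated exon shared, 317 bases from Tmem43 and 804 bases from syd, both on the opposite strand. Tmem43, a transmembrane protein gene, had 16.0 and 16.6 CPM in wh7 and 9.36 and 9.35 CPM in WT, without overlap (log2 fold change 0.80, SE 0.15, adjusted p = 0.125, edgeR). The gene syd, which encodes a kinesin adaptor, had 123 and 122 CPM in wh7 and 116 and 160 CPM in WT (log2 fold change -0.17, SE 0.20). Of the 12 genes counted as 6 on each side, 10 were tested and edgeR called none (1 at an unadjusted p under 0.05, which was Tmem43, and 1 by DESeq2), with log2 fold changes between -0.22 and 0.80.

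**Figure D3:**
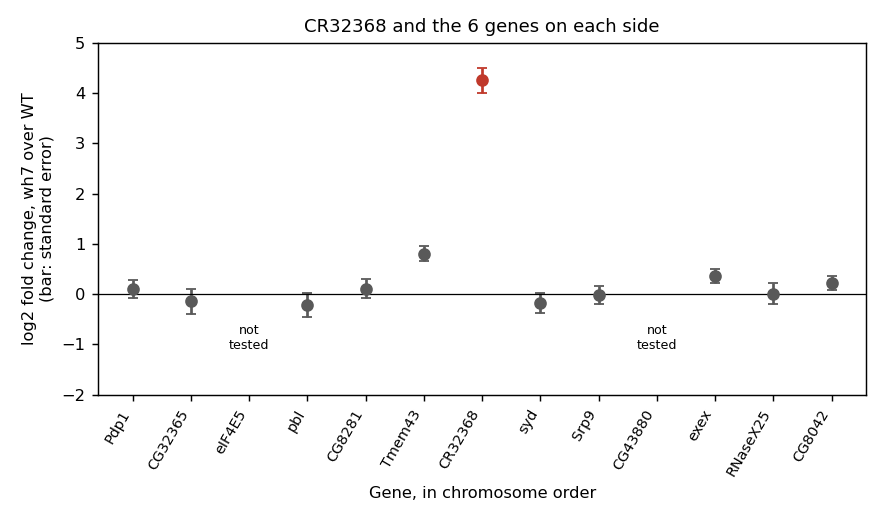
Log2 fold change (wh7 over WT, bars are standard errors) of CR32368 and the 6 genes on each side in chromosome order of the BDGP6.54 annotation. CR32368 stands at 4.25, Tmem43 at 0.80, and the other genes tested lie between -0.22 and 0.36.

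After CR32368, the highest fitted differences among genes whose libraries did not overlap belonged to marge, CR44310, CR44618, CR44318 and CR43650, and edgeR called none of them. Of these, marge and CR44618 reached the count rule only in wh7. DESeq2 gave adjusted p values of 0.0017 for marge, 1.7e-12 for CR44310, 0.018 for CR44618, 0.040 for CR44318 and 0.12 for CR43650. The gene marge had 1.91 and 2.51 CPM in wh7 and 0.317 and 0.632 CPM in WT (log2 fold change 2.22, SE 0.45, adjusted p = 0.149, edgeR). It lies on 3L, 586 bases from Ocho in the Bearded gene cluster, a set of small Notch pathway genes whose members Tom, Brd and Ocho had no counts in any library. CR44310 had 15.5 and 14.3 CPM in wh7 and 3.18 and 4.03 CPM in WT, so the libraries of each genotype lay close together. Its log2 fold change was 2.05 (SE 0.20), and its adjusted p of 0.052 in edgeR just missed the threshold. Leaving out wh7 replicate 1 gave CR44310 an adjusted p of 0.395 and leaving out wh7 replicate 2 gave 0.353, whereas omitting WT replicate 1 gave 0.030 and omitting WT replicate 2 gave 0.018, each of these fits having a genotype with 1 library.

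CR44310 has 1324 exon bases on arm 2L and shares none of them. The nearest coding gene, Ugt36A1, a UDP-glycosyltransferase gene 1478 bases away, was in the other direction, with 19.0 and 16.0 CPM in wh7 and 22.9 and 32.5 CPM in WT (log2 fold change -0.66, adjusted p = 0.323, edgeR). The next gene on the other side, the zinc finger gene odd, had 151 and 105 CPM in wh7 and 111 and 101 CPM in WT, which overlapped.

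CR44618 and CR44318 were of low level but close within wh7. CR44618 had 1.29 and 1.37 CPM in wh7 and 0.450 and 0.455 CPM in WT (log2 fold change 1.55, SE 0.31, adjusted p = 0.145, edgeR), on 41 to 141 counts. CR44318 had 3.56 and 3.77 CPM in wh7 and 0.921 and 1.83 CPM in WT (log2 fold change 1.41, SE 0.40, adjusted p = 0.236, edgeR). The gene beside CR44318, the antiviral gene Nazo at a distance of 178 bases, had lower values in wh7, at 88.2 and 91.5 CPM, than in WT, at 170 and 214 CPM (log2 fold change -1.09, SE 0.17, adjusted p = 0.102, edgeR). CR44138 belongs beside them as the third most abundant selected gene by length, at 48.4 CPM per kb. It had 30.5 and 32.8 CPM in wh7 and 18.3 and 13.8 CPM in WT, without overlap (log2 fold change 0.98, SE 0.19). Its adjusted p was 0.140 in edgeR and 0.0024 in DESeq2. CG9813 on the opposite strand had a log2 fold change of -0.08.

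Among the genes lower in wh7, CR44057 had no counts in either mutant library. It had 0 and 0 counts in wh7 and 213 and 128 counts in WT, or 2.18 and 1.42 CPM in WT. The WT mean of 1.80 CPM was 58.7 times a floor of 3 counts per wh7 library. The adjusted p was 0.069 in edgeR and 2.6e-08 in DESeq2. CR44057 reached the count rule only in WT, so this difference is in part a product of the rule. Of its 552 exon bases, 82.4% are shared with CR45791 on the opposite strand, which had 0 and 0 counts in wh7 and 56 and 36 in WT. The use of strand in counting is not given in the sources used here, so reads of such overlapping genes cannot be told apart. The coding neighbour Tbcc, 63 bases from CR44057, had 10.6 and 9.55 CPM in wh7 and 5.46 and 8.80 CPM in WT.

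The other low genes held counts in at least 1 wh7 library. Of them, CR45392 and CR45915 also reached the count rule only in WT. DESeq2 gave adjusted p values of 0.011 for CR45392, 0.00093 for CR43493, 0.042 for CR45915 and 0.70 for CR45570. CR45570 had 0 and 1.55 CPM in wh7 and 3.56 and 19.5 CPM in WT (log2 fold change -3.88, SE 1.87, adjusted p = 0.450, edgeR), so its replicates disagreed widely within each genotype. CR45392 had 0.365 and 0.0971 CPM in wh7 and 1.14 and 2.17 CPM in WT (log2 fold change -2.84, SE 0.77, adjusted p = 0.225, edgeR). Of the 12 genes around CR45392, 6 were tested and edgeR called none (2 at an unadjusted p under 0.05, 1 by DESeq2). The coding gene CG44006, singled out among them after its values were seen, had 0.483 and 0.505 CPM in wh7 and 2.66 and 3.93 CPM in WT. CR43493, opposite l(1)G0196 on the X, had 2.50 and 2.04 CPM in wh7 and 5.22 and 7.59 CPM in WT (log2 fold change -1.50, SE 0.28, adjusted p = 0.129, edgeR). The coding gene l(1)G0196 itself had a log2 fold change of 0.02.

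CR45915 lies within the Antennapedia Hox complex on 3R, where its span overlaps CR42651, the host transcript of mir-10, without sharing exon bases. CR45915 had 0.879 and 0.952 CPM in wh7 and 1.96 and 2.06 CPM in WT (log2 fold change -1.14, SE 0.26, adjusted p = 0.174, edgeR). CR42651 was in the other direction, with 3.45 and 3.32 CPM in wh7 and 2.32 and 2.53 CPM in WT (log2 fold change 0.48, SE 0.20, adjusted p = 0.396, edgeR). Both genes separated the genotypes in all 4 libraries, and edgeR called neither. DESeq2 called CR45915 (adjusted p = 0.042) and not CR42651. The nearest coding gene, the Hox gene Dfd, had too few counts to be tested.

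Host transcripts of miRNAs were grouped by the annotation after the values had been computed. A miRNA gene lies on the same strand within the span of 10 selected genes. These include mir-ban (bantam), a growth-promoting miRNA, mir-8, the fly relative of the miR-200 family, and the mir-277 and mir-34 cluster. The hosts are long, with a median of 8916 exon bases against 1071 for the other 69 genes, and by length they were low, with a median of 0.796 CPM per kb against 2.59 CPM per kb.

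Of the 10 hosts, 8 had a log2 fold change above 0 and 2 below, none was called by edgeR (2 at an unadjusted p under 0.05, none by DESeq2), and the lowest adjusted p in edgeR was 0.254. The median log2 fold change was 0.57, against -0.01 for the other 69. Libraries did not overlap for 6 hosts, 5 higher and 1 lower in wh7. Of all genes, 46.7% did not overlap, 23.8% higher and 22.9% lower in wh7. A log2 fold change above 0 was found for 5117 of all 10795 genes tested. The host counts include CR31044, which reached the count rule only in wh7. Summed over the 10, the level was 130 and 140 CPM in wh7 and 111 and 101 CPM in WT, most of it from Hsromega, whose span holds mir-4951.

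CR43650, the host of mir-8 on 2R, had the highest fold of the class. It had 4.99 and 3.09 CPM in wh7 and 1.88 and 2.11 CPM in WT (log2 fold change 1.02, SE 0.31, adjusted p = 0.268, edgeR), with the wh7 replicates farther apart than the WT replicates. CR43270, the host of mir-958, had 8.41 and 8.82 CPM in wh7 and 6.06 and 4.70 CPM in WT (log2 fold change 0.68, SE 0.20). CR31044, which holds mir-279 and mir-996, had 1.45 and 1.2 CPM in wh7 and 0.716 and 0.954 CPM in WT (log2 fold change 0.67, SE 0.33). These 3 hosts, the mir-10 host and Hsromega were higher in every wh7 library than in any WT library. For CR31044 this is in part a product of the count rule, which it met only through wh7.

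Of the other 5 hosts, CR43334 was in the opposite direction and 4 overlapped between genotypes. CR43334, the host of bantam, was lower in each wh7 library, with 2.1 and 1.92 CPM in wh7 and 2.46 and 3.14 CPM in WT (log2 fold change -0.47, SE 0.25, adjusted p = 0.487, edgeR). CR43423, a shorter gene whose exon lies wholly within that of CR43334, was level at 2.87 and 2.54 CPM in wh7 and 2.74 and 2.54 CPM in WT. CR43459, the host of mir-277 and mir-34, overlapped, with 8.53 and 6.59 CPM in wh7 and 8.08 and 10.5 CPM in WT. Overlap was also seen for CR45345, the host of mir-375, with 11 and 15 CPM in wh7 and 11.5 and 9.30 CPM in WT. CR46006, the host of mir-276a, and CR43314, the host of mir-bft, each had wh7 replicates over 2-fold apart.

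**Figure D4:**
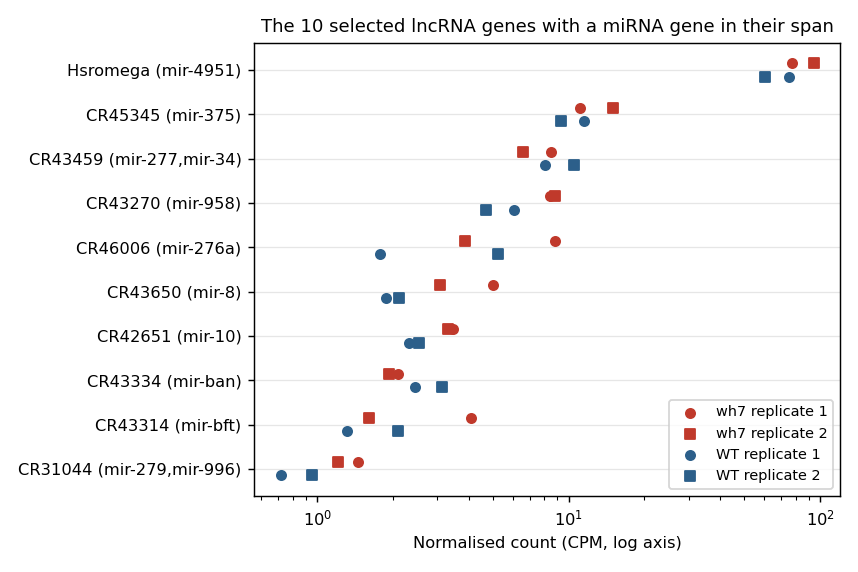
Normalised count (CPM, log axis) in each library of the 10 selected lncRNA genes with a miRNA gene in their span, wh7 above WT in each row. The wh7 points lie to the right of the WT points for Hsromega, CR43270, CR43650, CR42651 and CR31044, and to the left for CR43334.

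The host transcript of let-7, let7C, did not meet the selection rule. It had 35 and 54 counts in wh7 and 17 and 64 in WT, so the mutant libraries lay between the WT libraries (log2 fold change 0.03, SE 0.78, adjusted p = 0.994, edgeR). A count of a host transcript in a library for messenger RNA does not measure the mature miRNA. The 9 genes of miRNA maturation were all tested and none was called by edgeR or by DESeq2 or had an unadjusted p under 0.05, with log2 fold changes between -0.85 for lin-28 and 0.17 for Tailor. The nuclease gene drosha had 29.3 and 27.5 CPM in wh7 and 36.3 and 27.6 CPM in WT, and AGO1 had 266 and 264 CPM in wh7 and 239 and 278 CPM in WT.

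Selected snoRNA hosts were 2, CR42491 and CR45184. CR42491, on the X, holds snoRNA:Psi18S-531 and shares 50.5% of its exon with the ribosomal protein gene RpL22. It had 18.3 and 26.7 CPM in wh7, against 65.4 CPM in WT replicate 1 and 16.1 CPM in WT replicate 2. The fitted log2 fold change was -0.86 (SE 0.70, adjusted p = 0.660, edgeR) and turned to 0.48 without WT replicate 1. RpL22 did not follow that library, with 465 and 429 CPM in wh7 and 362 and 371 CPM in WT.

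WT replicate 1 was likewise the highest library for the snoRNA host genes named Uhg, which carry no lncRNA prefix in the table and so were outside the selection. Of 8 listed, 7 were found and 6 tested, 5 with a log2 fold change below 0 and none called by edgeR (2 at an unadjusted p under 0.05, 1 by DESeq2). Uhg5 had 5.05 and 6.06 CPM in wh7, and 23.0 and 8.75 CPM in WT, and Uhg1 had 6.76 and 8.96 CPM in wh7, and 19.5 and 6.31 CPM in WT. Genes for proteins that bind these snoRNAs were highest in the same library. Fib (fibrillarin) had 20.8 and 29.3 CPM in wh7, 83.5 CPM in WT replicate 1 and 18.9 CPM in WT replicate 2. Of the 6 such core genes tested none was called by edgeR or by DESeq2 or had an unadjusted p under 0.05. Whether this library difference bears on other selected genes was not tested.

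Of the lncRNA genes with a known nuclear role, Hsromega was the most abundant. Of 8 genes for proteins of its nuclear speckles that were found and tested, none was called by edgeR or by DESeq2 or had an unadjusted p under 0.05, and log2 fold changes lay between -0.46 for Hrb98DE and 0.09 for sqd. The roX RNAs, which act in males, were low in these female guts. The counts of roX1 were 21 and 10 in wh7 and 84 and 50 in WT (log2 fold change -2.13, SE 0.62, adjusted p = 0.252, edgeR), and roX2 had none in any library. Among the 5 male-specific lethal complex genes, none was called by edgeR or by DESeq2 or had an unadjusted p under 0.05, with log2 fold changes from -0.09 for mle to 0.04 for msl-2. The piRNA cluster transcript flam, the neural stem cell transcript cherub and the Hox transcript bxd had no counts in any library.

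Genomic position gave no common direction. Of the 79, 18 overlap a coding gene on the same strand, 14 only on the opposite strand, and 47 lie between coding genes, which is 59.5% against 71.0% of the 1832 other lncRNA genes (BDGP6.54 annotation). The median log2 fold changes of the 3 positions were 0.09, -0.08 and 0.21. The selected genes were longer, with a median of 1162 exon bases against 604.5, and a larger share of them, 31.6% against 12.7%, had exon bases in common with another gene. They lie on X (16), 2L (13), 2R (9), 3L (17) and 3R (24), with median log2 fold changes of -0.04 on X and 0.15 on the autosomes.

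The differences of the selected genes and of their nearest coding genes showed little relation. Over 70 pairs with both genes tested, Pearson's r was 0.07 and Spearman's rho 0.06, given as a description across genes that share the same 4 libraries, and 37 pairs had the same sign. For 39 pairs in which the lncRNA gene lies between coding genes, r was 0.11, and 0.03 without CR32368. Of 10 selected genes among the 70 with a difference of 2-fold or more, 5 had a coding neighbour within 1.5-fold. CR44331, opposite the JNK phosphatase gene puc, had 3.14 and 3.65 CPM in wh7 and 2.49 and 2.88 CPM in WT, without overlap (log2 fold change 0.34, SE 0.22, adjusted p = 0.582, edgeR). On the other strand, puc had 157 and 143 CPM in wh7 and 100 and 168 CPM in WT, which overlapped.

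Replicates disagreed more often for the selected genes than for other genes that met the same count rule. The wh7 replicates were over 2-fold apart for 6 of the 79 (7.59%), against 2.38% of the 8867 other genes under the same count rule, and the WT replicates for 13 (16.5%), against 9.83%. Since the selected genes are less abundant than the others, counting error differs between these sets. Of the 10 with over 50% of the exon shared with another gene, 5 had a replicate pair over 2-fold apart, and of the 54 with none shared, 10 did.

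Some of the wide disagreements, chosen after their values were seen, lay in genes contained wholly or largely in a coding gene, while CR45570, described above, shares no exon. CRG, a locomotor behaviour gene whose exon lies wholly within CASK on the same strand, had 4.92 and 0.0777 CPM in wh7 and 5.64 and 4.88 CPM in WT. CASK itself had 112 and 126 CPM in wh7 and 140 and 144 CPM in WT. CR45184, with 94.7% of its exon in Sf3b3 and 5 snoRNA genes in its span, had 6.66 and 0.612 CPM in wh7 and 3.77 and 0.699 CPM in WT. CR45939, with 89.9% in ftz-f1, had 1.5 and 1.47 CPM in wh7, and 0.0511 and 1.43 CPM in WT. Around them, Sf3b3 had 191 and 203 CPM in wh7 and 266 and 137 CPM in WT, and ftz-f1 had 120 and 122 CPM in wh7 and 94.1 and 95.7 CPM in WT.

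**Figure D5:**
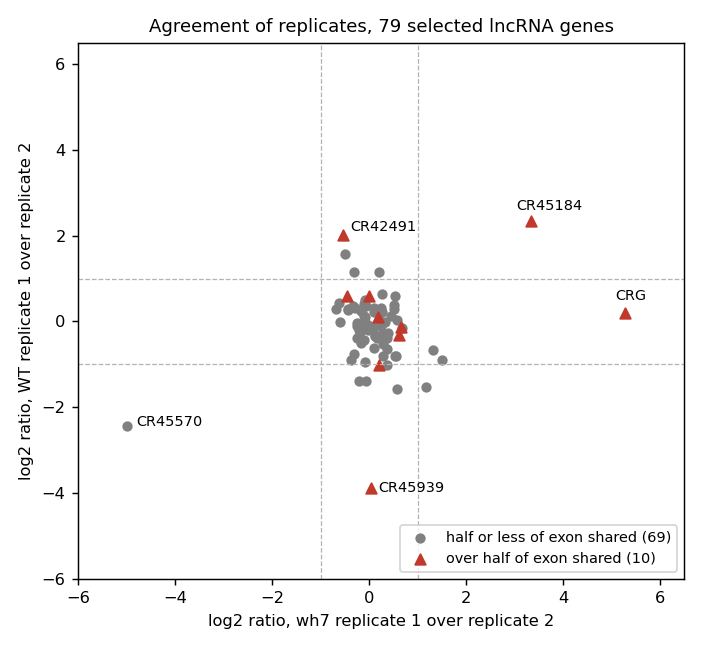
Log2 ratio of replicate 1 over replicate 2 in wh7 (x axis) and in WT (y axis) for each of the 79 selected lncRNA genes, computed after adding 0.05 CPM, with dashed lines at a 2-fold ratio. Triangles mark the 10 genes with over 50% of the exon shared, among them CRG, CR45184, CR45939 and CR42491 far from the centre, while CR45570 lies far out with none shared.

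Apart from CR42862 and CR32368, the selected genes summed to 647 and 636 CPM in wh7 and 590 and 600 CPM in WT. The mutant libraries were higher in this sum by a margin wider than the gap between replicates of either genotype. By edgeR no gene in the sum was called, while DESeq2 called 10 of the 79 selected genes. The 2 genes were left out with their values known. With all 79 genes, the shares of counts overlapped, at 0.270% and 0.236% in wh7 and 0.209% and 0.273% in WT. At 2 against 2 libraries, chance leaves 33.3% of genes without overlap. The part of the marker shifts in this sum was not tested.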

How the data were processed

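RNA-seq was analysed for 2 wh7 and 2 WT libraries, grouped by the genotype in the labels. The authors trimmed reads with Trimmomatic 0.36, aligned them with HISAT2 and quantified them with StringTie 2.1.4. They deposited raw counts per gene, whole numbers that are not normalized. The genome build, the use of strand and how estimates became whole counts are not given in the sources used here. Their table of log2 fold changes, p-values, adjusted p-values and normalized counts was not used.

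Counts were fitted with edgeR 4.0.16 in R 4.3.3. Genes were kept by filterByExpr (10795 of 17807), scaled by TMM and compared by its quasi-likelihood test on genotype alone, with Benjamini-Hochberg adjustment over all genes tested. CPM are counts per 1000000 of the TMM-scaled library. DESeq2 1.42.0, other scalings, no filter, a replicate block and leaving out each library were alternatives. The script was checked on simulated counts. There edgeR called 129 of 200 changed genes, and also 19 unchanged genes, at an adjusted p under 0.05. With 2 pools per genotype, p-values measure the spread between these pools only. With 93603837 to 101610356 counts per library, 3 counts are at most 0.0333 CPM.

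The members and gene lists were chosen with earlier results of these data known. The genes named were the 10 of highest mean, those called, and of the others without overlap the 5 highest and 5 lowest log2 fold changes, with lncRNA genes of known role, wuho and nearest coding genes. Arms, exon lengths and neighbours came from Ensembl's BDGP6.54 annotation. No coordinates are given because the authors' build is not named.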

Additional observations from a re-analysis of the deposited data

How the results depend on the processing

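Calls depended on the processing, and directions of the named genes mostly did not. Counts of selected lncRNA genes called were 1 in the edgeR fit, 2 with library totals in place of TMM and 10 with DESeq2, and 0 to 9 when each library was left out. No gene was called without wh7 replicate 1 or without wh7 replicate 2, where the lone remaining library was assumed to vary like those of WT. Over all genes the counts were 52 in the edgeR fit, 30 with no filter on low counts and 859 with DESeq2, and 0 to 921 when each library was left out. The median log2 fold change of the selected genes was 0.13, and 0.035 to 0.18 when each library was left out. It was 0.029 over the 58 genes with 100 counts in all 4 libraries. The cause of these shifts was not tested.

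The libraries share replicate numbers, but the labels do not say that a number marks a shared batch. With the replicate block, 0 selected genes and 0 of all genes were called, and the correlation of same-numbered deviations was -0.15. With the crossed pairing, an alternative chosen after seeing the data, 2 selected genes and 99 of all genes were called.

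Among the 20 named genes, 7 values reversed, all on leaving out a library. Over the 4 such fits the log2 fold change of CR42491 ran from -1.55 to 0.48, of CR42549 from -0.22 to 0.15, of CR42839 from -0.17 to 0.060, of CR42862 from -0.35 to 0.29 and of CR45018 from -0.10 to 0.70. The sign of CR42491 and of CR45018 turned without WT replicate 1, of CR42549 and CR42862 without WT replicate 2 (0.15 and 0.29) and without wh7 replicate 2 (0.04 and 0.11), and of CR42839 without wh7 replicate 2. Apart from these, 19 values crossed to an adjusted p under 0.05, among them CR44310 with library totals (0.047), CR44138 and marge without WT replicate 2 (0.043 and 0.038) and 9 genes with DESeq2. The other 154 kept their direction, and those with a p their side of the threshold. CR32368 is given without a p, and as the gene called in the edgeR fit it lost its call where no selected gene was called, that is with the replicate block and without either wh7 library in turn. Genes of low level rest on few counts, and a difference there may not be detectable at this depth.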

Other observations

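Some lncRNA genes with a wide gap between genotypes missed the count rule. CR32773, just outside it, had 14 and 13 counts in wh7 and 99 and 93 in WT. It was chosen after its values were seen, and its difference is given as a value only.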
